A study of Mus musculus with 6 samples.

Results

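The connexin genes Gja1, Gja3, Gja4, Gja5, Gjb2, Gjb6 and Gjc1 were examined for DNA methylation peaks in mouse primary mesangial cells with and without TGF-β1. They are 7 of the 22359 protein-coding genes of the GENCODE vM1 annotation on the mm9 genome. A peak was counted at a gene when its summit, the base of highest coverage, lay in the gene or within 5 kb either side. This gave 123 of the 579787 peaks of the 6 samples, and joining peaks that overlapped by at least 1 bp gave 41 of 170444 regions. Gja4 was set beside the other 6 genes for peaks in coding exons, promoters and flanks. Peaks in the coding exon were found in all 6 samples at Gja1, Gjb2 and Gjb6 and in 3 samples at Gja4, and the promoter of Gja4 held none.

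Mesangial cells are the contractile cells that hold the capillary loops of the kidney glomerulus together. The control group held 3 samples with no TGF-β1, and the TGF-β1 group held 3 samples given 10 ng/ml of this profibrotic cytokine for 72 hours, called treated samples here. Both groups were grown in high glucose (25.5 mM) with 20% fetal bovine serum and used between passages 3 and 6, so no sample represents normal glucose. Methylated DNA was captured by an antibody and sequenced (MeDIP-seq). The study calls the samples of a group biological replicates, without saying whether they came from separate animals, so p-values measure only the spread between these samples, which may be technical. A lower capture in a pool of cells can mean fewer cells with the methylated site or fewer methylated bases per cell, and these cannot be told apart.

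Connexins are membrane proteins that assemble in groups into a hemichannel, and hemichannels of neighbouring cells dock to form a gap junction, through which ions and small molecules pass. Gja1 (Cx43) is the most widely expressed connexin and is found in mesangial cells. Gja4 (Cx37), Gja5 (Cx40) and Gjc1 (Cx45) are connexins of the vessel wall, and in the kidney Gja5 is known for its role in the renin-secreting cells beside the glomerulus. Gja3 (Cx46) is a lens connexin, and Gjb2 (Cx26) and Gjb6 (Cx30) are best known from the supporting cells of the inner ear. Most connexin genes carry their protein-coding sequence in a single exon behind a non-coding first exon. Methylation of CpG-rich promoters is associated with silent genes, whereas methylation inside gene bodies is common in both active and silent genes.

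The capture antibody binds methylated cytosine, which in these cells occurs mainly at CpG dinucleotides, so the CpG positions under a summit show what could be captured. The reference sequence is given here for 150 bases around the median summit of 5 regions, read from mm9 on the strand of the gene, 5′ to 3′, with each CpG in capitals. The first 4 stand for the coding-exon peaks of Gjb6, Gjb2, Gja1 and Gjc1, and the last is the promoter region found in most samples. The windows are chr14:57743172-57743321 for Gjb6 (minus strand), chr14:57719222-57719371 for Gjb2 (minus), chr10:56107604-56107753 for Gja1 (plus), chr11:102662017-102662166 for Gjc1 (minus) and chr14:57724004-57724153 for the Gjb2 promoter (minus).
Gjb6 coding exon: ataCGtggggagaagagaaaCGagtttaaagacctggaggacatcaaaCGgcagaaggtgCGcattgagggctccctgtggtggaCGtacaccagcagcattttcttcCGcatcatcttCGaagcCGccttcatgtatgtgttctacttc
Gjb2 coding exon: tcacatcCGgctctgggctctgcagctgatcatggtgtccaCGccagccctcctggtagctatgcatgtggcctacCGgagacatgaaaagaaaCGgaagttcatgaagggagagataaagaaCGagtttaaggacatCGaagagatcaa
Gja1 coding exon: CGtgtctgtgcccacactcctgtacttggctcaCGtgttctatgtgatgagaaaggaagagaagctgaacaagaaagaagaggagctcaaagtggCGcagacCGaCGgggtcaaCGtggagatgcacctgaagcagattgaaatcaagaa
Gjc1 coding exon: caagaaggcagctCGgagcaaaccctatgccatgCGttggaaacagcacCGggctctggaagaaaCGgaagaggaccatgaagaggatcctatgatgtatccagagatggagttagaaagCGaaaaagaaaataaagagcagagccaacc
Gjb2 promoter: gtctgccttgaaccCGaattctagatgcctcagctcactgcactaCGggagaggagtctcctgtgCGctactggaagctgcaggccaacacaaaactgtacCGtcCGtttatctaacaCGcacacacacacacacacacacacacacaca
The Gjb6 window holds 8 CpG, the Gjb2 and Gja1 coding windows 6 each and the Gjc1 window 5. The Gjb2 promoter window also holds 6, and it ends in a run of CA repeats. Of like windows that are not printed, that of the Gja3 coding exon holds 1 CpG. That of the Gja1 upstream flank holds 2 and that of a Gja3 intron region 8.

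Gja4 (ENSMUSG00000050234.7) lies on the minus strand of chromosome 4, at chr4:126988665-126991283, and its coding sequence of 999 bp fills 1 exon at chr4:126989214-126990212. Control replicates 1, 2 and 3 had 1, 2 and 4 peaks there, and treated replicates 1, 2 and 3 had 3, 3 and 1. The groups overlapped and had the same mean, 2.33 peaks, with an SD of 1.53 among controls and 1.16 among treated samples (n = 3 each; exact two-sided permutation test, p = 1, smallest possible 0.1). Control replicate 3 had every region of the gene, while control replicate 1 and treated replicate 3 had a single one. The peaks fell into 4 regions, of which 2 touched the coding exon, 1 lay downstream and 1 upstream, and no peak was found in the promoter (2 kb before the transcript start) or the intron in any sample.

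**Figure D1:**
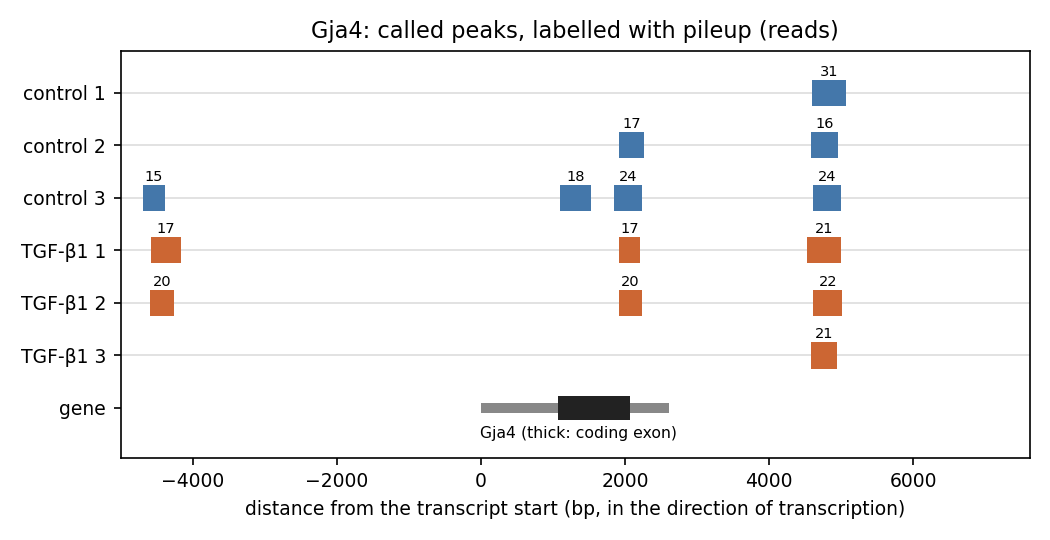
Called peaks at Gja4 in each sample (rows), placed by distance from the transcript start in bp along the direction of transcription, with the pileup in reads above each bar and the gene in the bottom row (thick: coding exon). The downstream peak is present in all 6 samples, the peak at the 3′ end of the coding exon in 4, the upstream peak in 3 and the 5′ coding peak in control 3 alone, and no peak lies over the start.

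In the coding exon of Gja4, summits were found in control replicate 3 (2 peaks) and in treated replicates 1 and 2 (1 peak each). The means were 0.667 ± 1.16 in control and 0.667 ± 0.577 in treated samples (SD, n = 3 each; exact two-sided permutation test, p = 1). Most of these came from a single region at the 3′ end of the coding exon, chr4:126989019-126989440. The pileup counts the extended reads that cover a summit, and here it was 17 reads in control replicate 2, 24 in control replicate 3, 17 in treated replicate 1 and 20 in treated replicate 2. No peak was called there in control replicate 1 or treated replicate 3, so each group had 2 samples with and 1 without. The summit of control replicate 2 lay 7 bp past the stop of the coding sequence, in the 3′ untranslated part of the exon, and the other 3 lay 946 to 980 bp into the 999 bp.

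Pileup was not scaled for depth, and all 3 TGF-β1 samples had more reads (12634300 to 13291419) than all 3 control samples (9407103 to 11494356), so the effect of depth and that of treatment cannot be told apart. Scaled pileup, the pileup per 1000000 reads of the sample, reached 1.81 and 2.09 at the 3′ coding region of Gja4 in control replicates 2 and 3 and 1.33 and 1.58 in treated replicates 1 and 2. Both TGF-β1 values were below both control values, with means of 1.46 and 1.95. Scaled pileup was also lower after TGF-β1 over the 41744 regions called in all 6 samples, with a median log2 fold change of -0.0957. At an unadjusted p below 0.05 in limma, 2387 of those were lower and 212 higher. The share of all regions with non-overlapping groups in scaled pileup was not computed. The difference of -0.489 had p = 0.333 in an exact two-sided permutation test, which is the smallest p for 2 samples against 2, and the uncalled sample of each group is left out of it. The ratio of pileup to local background was 6.00 and 5.95 in these control samples and 5.47 and 5.25 in these TGF-β1 samples.

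The other coding region of Gja4, chr4:126989748-126990188 toward the 5′ end, was called in control replicate 3 alone, with 18 reads and a ratio to background of 4.52. It had the highest CpG density of all 41 connexin regions, with 27 CpG in 441 bp (6.12 per 100 bp). The 3′ coding region held 10 CpG in 422 bp (2.37 per 100 bp), the lowest density of the 8 coding-exon regions. The more CpG-dense of the coding regions of Gja4 was thus the one with fewer calls. The 3′ region runs past the end of the coding sequence, so its density is not that of coding sequence alone.

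The downstream region of Gja4, chr4:126986214-126986753, was the only one of its 4 regions called in every sample. Its pileup was 31, 16 and 24 reads in control replicates 1, 2 and 3 and 21, 22 and 21 reads in treated replicates 1, 2 and 3. The TGF-β1 samples lay within the range of the control samples, which was set by replicates 1 and 2. Scaled pileup was 3.00, 1.70 and 2.09 in control and 1.65, 1.74 and 1.58 in treated samples, with means of 2.26 ± 0.669 and 1.66 ± 0.0810 (SD, n = 3 each; exact two-sided permutation test, p = 0.2). In limma across all regions called in 6 samples, with each sample centred on its median, the log2 fold change was -0.32 ± 0.231 (SE; unadjusted p = 0.174, Benjamini-Hochberg adjusted p = 0.999). It was -0.04 without control replicate 1, the sample with the highest pileup, and -0.50 without control replicate 2 (unadjusted p = 0.0490, adjusted p = 0.999).

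The upstream region of Gja4, chr4:126995449-126995976, had its median summit 4432 bp before the transcript start. It was called in control replicate 3 with 15 reads and in treated replicates 1 and 2 with 17 and 20 reads. Scaled pileup was 1.31 in control replicate 3 and, in the treated samples, 1.33 and 1.58. The difference in scaled pileup was 0.15, and 1 control value is too few for a test of it to decide. The lowest pileup called in a sample was also put in where it had no peak. The limma log2 fold change was then 0.36 ± 0.396 (SE, Benjamini-Hochberg adjusted p = 0.979).

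Of the 8 coding-exon regions of these genes, 4 were called in all 6 samples, against 4 of the 33 regions elsewhere. A coding-exon peak was found in all 6 samples at 3 of the 7 genes (Gja1, Gjb2 and Gjb6), against 10.8% of all protein-coding genes, and in at least 1 sample at 6 of the 7, against 41.9%. Gja4, Gjc1 and Gja3 had one in some samples, and Gja5 in none. These shares are a description, since genes differ in length and CpG content.

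**Figure D2:**
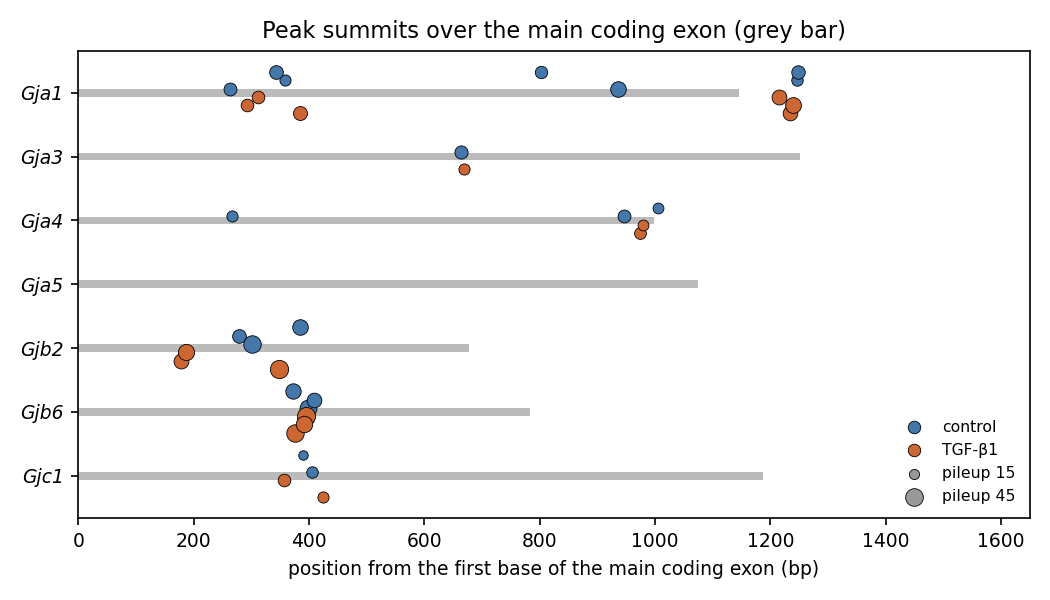
Summits in and just beyond the main coding exon of each connexin gene, with position in bp from the first coding base on the horizontal axis, genes as rows, the exon as a grey bar, and dot area growing with pileup in reads (blue: control, orange: TGF-β1). The 6 Gjb6 summits lie together near the middle of the exon, the Gja4 summits lie mostly at its 3′ end, and Gja5 has no summit.

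Gjb6 had the coding-exon region with the highest mean pileup, 39.3 reads. At chr14:57743006-57743516 the pileup was 34, 31 and 41 reads in control replicates 1, 2 and 3 and 47, 39 and 44 in treated replicates 1, 2 and 3, and the groups overlapped. Scaled pileup ranged from 3.30 to 3.57 in control and from 3.09 to 3.69 in treated samples. The 6 summits lay 373 to 409 bp into the 783 bp of coding sequence, and the 8 CpG printed above for Gjb6 surround their median. The mean ratio to background was 11.3, which was above 94.8% of the 41744 regions called in all 6 samples. The limma log2 fold change was 0.08 ± 0.176 (SE; Benjamini-Hochberg adjusted p = 0.999).

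Gjb2, which lies near Gjb6 on chromosome 14, had a coding-exon region of like pileup at chr14:57718989-57719612. The values were 35, 27 and 44 reads in control replicates 1, 2 and 3 and 38, 32 and 48 in treated replicates 1, 2 and 3. Its summits were spread from 178 to 385 bp into the 678 bp of coding sequence. The mean pileup of 37.3 reads was above 84.3% of the regions called in all samples, while the ratio to background, 6.67, was below the median of 7.35 for those regions. The limma log2 fold change was -0.06 ± 0.190 (SE; Benjamini-Hochberg adjusted p = 0.999).

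Gja1 had a pair of regions over and just beyond its coding exon, both called in all samples. The 5′ region, chr10:56107417-56107890, had 27, 18 and 24 reads in control replicates 1, 2 and 3 and 23, 23 and 28 reads in treated replicates 1, 2 and 3. The 3′ region, chr10:56108049-56108799, had 26, 19 and 35 reads in control and 32, 36 and 31 reads in treated samples. In both, the groups overlapped, and the limma log2 fold changes were -0.11 ± 0.215 and 0.13 ± 0.208 (SE; Benjamini-Hochberg adjusted p = 0.999 for each). In the 3′ region, 5 of the 7 summits lay 70 to 102 bp past the 1146 bp main coding exon and counted as coding only through a second transcript model of the gene. The 5′ region had a low ratio to background for a region shared by all samples (5.10, above 4.29% of them).

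Gjc1 had 1 region in all, over its coding exon at chr11:102661940-102662271. It was called with 13 and 19 reads in control replicates 1 and 3 and with 23 and 18 reads in treated replicates 1 and 3, and not in replicate 2 of either group. Gja3 had a coding-exon region at chr14:57654962-57655324, called with 25 reads in control replicate 3 and 18 reads in treated replicate 2. Its 2 summits were 664 and 668 bp into the 1251 bp of coding sequence, and the whole exon has 4.72 CpG per 100 bp. Gja5 had no summit in its 1074 bp coding exon in any sample, and this exon has 2.89 CpG per 100 bp, between that of Gjc1 (2.19) and that of Gjb6 (3.19).

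Within a sample, the pileup at Gja4 can be set against that of the other genes without scaling. The Gjb6 and Gjb2 coding regions were higher than the 3′ coding region of Gja4 in 4 of the 4 samples that had both, and higher than its downstream region in 6 of 6. The 3′ region of Gja1 was higher in 4 of 4 and 5 of 6, and its 5′ region in 3 of 4 and 4 of 6. Gja3 and Gjc1 were each higher than the 3′ coding region of Gja4 in 1 of the 2 samples with both. The mean ratio to local background, over the samples with a peak, gave another order. It was 11.3 at Gjb6, 7.43 at Gja3, 6.67 at Gjb2, 6.10 at Gjc1, and 6.50 and 5.10 at the 3′ and 5′ regions of Gja1. At Gja4 this ratio was 6.77 in the downstream region and 5.67 in the 3′ coding region. The coding exon of Gja4 has more CpG (4.71 per 100 bp) than those of Gjb6, Gjb2 (3.25) and Gja1 (3.84).

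**Figure D3:**
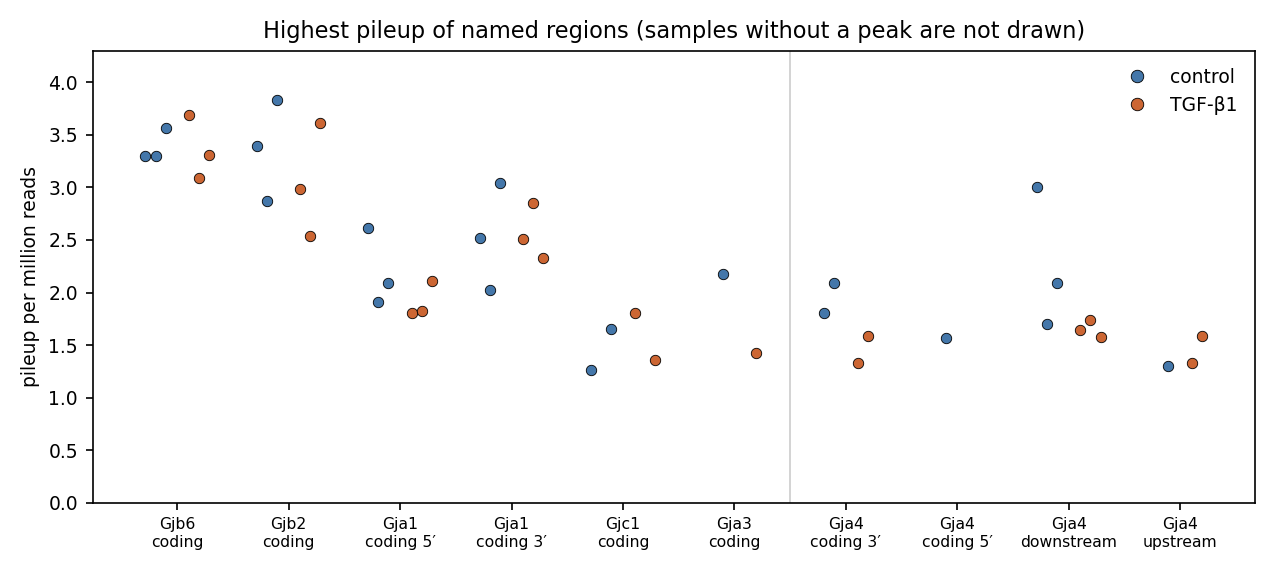
Scaled pileup (pileup per 1000000 reads, vertical axis) of the coding-exon regions of 5 connexin genes and, right of the line, of the 4 Gja4 regions, with 1 dot per sample that had a peak (blue: control, orange: TGF-β1). Gjb6 and Gjb2 lie between 2.53 and 3.83, and Gja4 lies between 1.31 and 2.09 except for the downstream region in control 1 at 3.00.

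Promoters were seldom called. A promoter peak in at least 1 sample was found at 2 of the 7 genes, Gjb2 and Gjb6, and at 20.4% of all protein-coding genes, and no connexin had one in all 6 samples (4.89% of all genes did). At Gjb2 the region printed above, chr14:57723905-57724294, had its median summit 540 bp before the start. It was called with 29 and 23 reads in control replicates 1 and 2 and with 25 and 33 reads in treated replicates 1 and 2. In treated replicate 3 there was a separate promoter peak of 21 reads with its summit 1079 bp before the start. At Gjb6 control replicate 2 alone had a promoter peak, of 20 reads, 29 bp before a transcript start.

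The sequence around the starts differed widely between these genes. Within 500 bp of a start, the CpG density was 15.1 per 100 bp at one start of Gjc1, 9.39 at Gja3 and 9.09 at Gjb2, with observed over expected CpG ratios of 1.03, 0.854 and 0.847. No summit lay within 500 bp of these starts in any sample. Around the start of Gja4 the density was 3.90 per 100 bp with a ratio of 0.472, and there too no summit was found. A summit this near was found at both Gjb6 starts, through the peak of control replicate 2, and at the second Gja1 start, which is the first base of the coding exon.

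The flanks and introns held most of the other regions. Gja1 had an upstream region in all samples, chr10:56094164-56094701, with its median summit 2669 bp before the start. Its pileup was 22, 20 and 27 reads in control and 29, 30 and 36 in treated replicates 1, 2 and 3. Every treated value was above every control value before scaling, which held for this 1 of the 8 connexin regions called in all samples and for 14.6% of all 41744 such regions. Treated values below every control value were found at 0 of the 8 and at 0.309%. Scaled pileup was 2.13 to 2.35 in control and 2.28 to 2.71 in treated samples, and the groups overlapped (limma log2 fold change 0.24 ± 0.201, SE, unadjusted p = 0.234, Benjamini-Hochberg adjusted p = 0.999). Gja3 had an intron region in all samples, chr14:57672992-57673481, with 16, 12 and 25 reads in control and 24, 18 and 25 in treated samples (limma log2 fold change 0.17 ± 0.228, SE, adjusted p = 0.999).

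The flanks of Gjb6 were called unevenly. Its downstream region, chr14:57737657-57738029, had 31 reads in control replicate 3 and 23, 20 and 23 reads in treated replicates 1, 2 and 3, with no peak in control replicates 1 and 2. Its upstream region, chr14:57756680-57757091, had 20 and 39 reads in control replicates 2 and 3 and 29, 25 and 36 reads in treated samples. In both regions the highest pileup was that of control replicate 3. The downstream region of Gjb2, chr14:57716652-57717025, was called in control replicates 1 and 3 with 23 and 18 reads and in treated replicate 3 with 18 reads.

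All 15 regions of Gja5 lay in introns. The gene spans 172724 bp through 1 long transcript, and 3 of the 15 regions also lie in another annotated gene, so those cannot be assigned to 1 gene. The highest mean pileup, 30 reads, was that of a region called in treated replicate 3 alone, chr3:96732623-96732967. Among regions called in more than 1 sample, the highest mean pileup was at chr3:96875614-96876013, with 26 and 39 reads in control replicates 2 and 3, 21, 30 and 27 reads in treated replicates 1, 2 and 3, and no peak in control replicate 1. Scaled pileup was 2.76 and 3.39 in the control samples with a peak and 1.65 to 2.37 in treated samples. Among regions called in every sample, it entered the limma test only when control replicate 1 was left out, with a log2 fold change of -0.47 ± 0.228 (SE; unadjusted p = 0.0445, Benjamini-Hochberg adjusted p = 0.811). With the lowest pileup called in control replicate 1 put in for that sample, the limma log2 fold change was 0.11 ± 0.456 (SE; adjusted p = 0.990). Its sequence is shown for the window chr3:96875736-96875885 (plus strand, CpG in capitals) because it is a tandem repeat, in which 57 bases recur at a spacing of 58 bases.
Gja5 intron: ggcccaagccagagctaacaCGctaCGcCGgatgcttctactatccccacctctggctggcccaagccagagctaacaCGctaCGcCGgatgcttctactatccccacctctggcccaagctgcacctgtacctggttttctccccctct
The study kept uniquely placed reads, and the part of the repeat in this pileup was not tested.

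The remaining Gja5 regions included 4 that were called in at least 2 more samples of one group than of the other. Those at chr3:96766324-96766682 (16 and 18 reads in treated replicates 1 and 2) and chr3:96793430-96793728 (15 and 18 reads in treated replicates 1 and 3) had no control peak. The region at chr3:96770091-96770469 (14 and 20 reads in control replicates 2 and 3) and 1 of the 3 shared with another gene (26 and 21 reads in control replicates 1 and 3) had no TGF-β1 peak. Of all 41 connexin regions, 2 were thus called in 2 treated and no control samples, against 3.86% of all joined regions, and 2 in 2 control and no treated samples, against 1.93%. One Gja5 region was called in all samples, chr3:96778743-96779721, with 27, 16 and 19 reads in control and 23, 18 and 17 in treated samples (limma log2 fold change -0.30 ± 0.232, SE, Benjamini-Hochberg adjusted p = 0.999). Without control replicate 1, the sample with the highest pileup there, the log2 fold change was -0.03.

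The question of the design is whether TGF-β1 changed methylation at these genes. Counting all peaks of a gene and its flanks, the control and TGF-β1 samples overlapped at all 7 genes. Groups that did not overlap, with TGF-β1 higher, were found at 0 of the 7 and at 3.13% of all protein-coding genes, and with TGF-β1 lower at 0 of the 7 and at 0.277%. The mean number of peaks was 0.333 higher after TGF-β1 at Gja1 (3.67 ± 0.577 and 4 ± 1 in control and treated samples, SD), 0.667 higher at Gja5 (6.33 ± 1.53 and 7 ± 1) and 1 higher at Gjb6 (2.33 ± 1.16 and 3.33 ± 0.577). It was 0.333 lower in TGF-β1 at Gjb2 (2.67 ± 0.577 and 2.33 ± 0.577), and the means were equal at Gja3 (1.67), Gja4 (2.33) and Gjc1 (0.667). The exact two-sided permutation tests of 3 against 3 samples gave p = 0.6 at Gjb6, p = 0.8 at Gja5 and p = 1 at the other 5 genes. The median difference was 0 over the 7 genes and also over all genes.

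**Figure D4:**
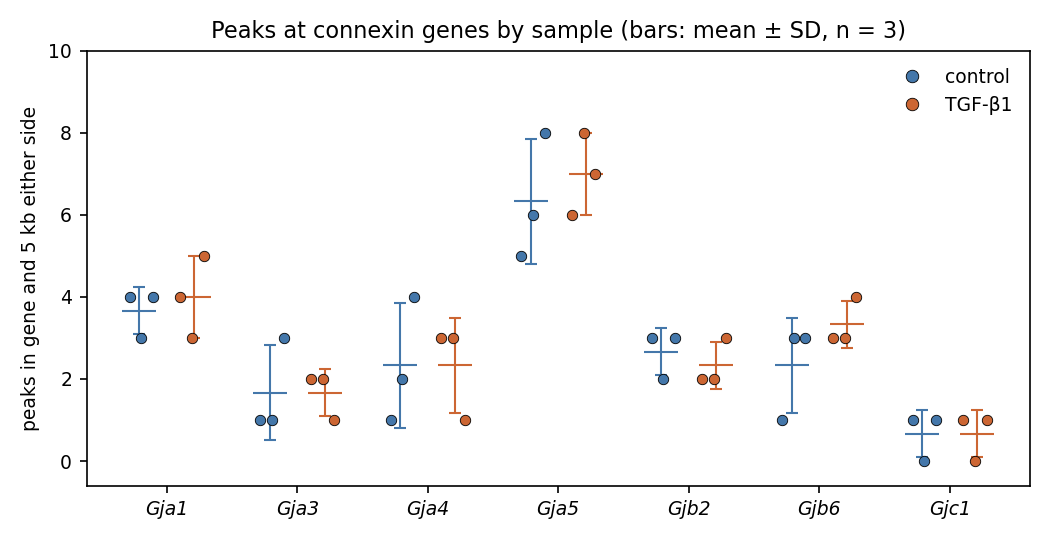
Number of peaks in each connexin gene and 5 kb either side (vertical axis), with 1 dot per sample, a horizontal line at the mean and bars of 1 SD (n = 3; blue: control, orange: TGF-β1). The groups overlap at every gene, Gja5 has 5 to 8 peaks, Gjc1 has 0 or 1, and Gja4 has 1 to 4 over the 6 samples.

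In coding exons alone, non-overlapping groups were likewise found at 0 of the 7 genes in either direction, against 0.465% of all genes with TGF-β1 higher and 0.152% with TGF-β1 lower. Of the 41 regions, 0 were called in all TGF-β1 samples and no control sample (0.948% of all regions were) and 0 in all control samples and no TGF-β1 sample (0.233%). A single call kept 3 regions from the first kind, namely the Gjb6 downstream region, called in control replicate 3 as well, and the 2 Gja5 regions missed in 1 treated sample. A single call likewise kept 2 Gja5 regions from the second kind, those called in 2 control and no treated samples. Over all regions, 3.86% were called in 2 treated and no control samples and 1.93% in 2 control and no treated samples. The share called in 3 samples of one group and 1 of the other was not computed. In all, 8 regions (19.5%) were called in all 6 samples, against 24.5% of all regions, and 15 (36.6%) were called in a single sample, against 27.3%. Of those 15, control replicates 1, 2 and 3 held 0, 1 and 5, and treated replicates 1, 2 and 3 held 2, 1 and 6. Replicate 3 was the most deeply sequenced sample of each group, but treated replicates 1 and 2 had more reads than control replicate 3. The part of depth in these calls was not tested.

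In the limma test, 0 of the 8 shared connexin regions and 0 of all 41744 regions (0%) passed the thresholds in the study's methods. These were an adjusted p of 0.01 and a log2 fold change of 2 in either direction. Most methylation fold changes that the study lists for genes with changed expression are smaller than 2 in either direction. The smallest Benjamini-Hochberg adjusted p of limma over all regions was 0.677, so a lower fold change cutoff would give the same count. At an unadjusted p below 0.05, 0 of the 8 were called, against 1744 of all regions (4.18%), of which 818 were higher and 926 lower after TGF-β1. The log2 fold changes ran from -0.32 at the Gja4 downstream region to 0.24 at the Gja1 upstream region, with 4 above and 4 below 0 and a median of 0.0092, where that of all regions was -0.0047. The median of the connexin regions was -0.0818 with 3 above and 5 below 0 when pileup was scaled by reads, and it ran from -0.0933 (without control replicate 2) to 0.0599 (without control replicate 3) when each sample was left out, so it had no stable sign. Regions missed in any sample, such as both coding regions of Gja4, did not enter this test. A large change can leave 1 group below the lowest called pileup and so take a region out. The count of 0 therefore cannot decide on changes of that size. With the lowest pileup called in a sample put in its place where no peak was called, and regions of at least 3 samples kept, the 3′ coding region of Gja4 had a log2 fold change of -0.23 ± 0.482 (SE; limma, Benjamini-Hochberg adjusted p = 0.981).

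CpG density was higher in the coding regions than in most of the others. The 8 coding-exon regions had a median of 3.67 CpG per 100 bp (range 2.37 to 6.12), and the 33 other regions had a median of 2.32. Over all joined regions on chromosomes the median was 2.37 and the quartiles ran from 1.77 to 3.04. The 8 connexin regions called in all samples had a median of 3.01 and the 15 called in a single sample 2.22. The Gja4 downstream region, called in all samples, had 1.67 CpG per 100 bp, and the Gja1 upstream region had 1.49, so a region could be called in every sample at a density below that of most regions.

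**Figure D5:**
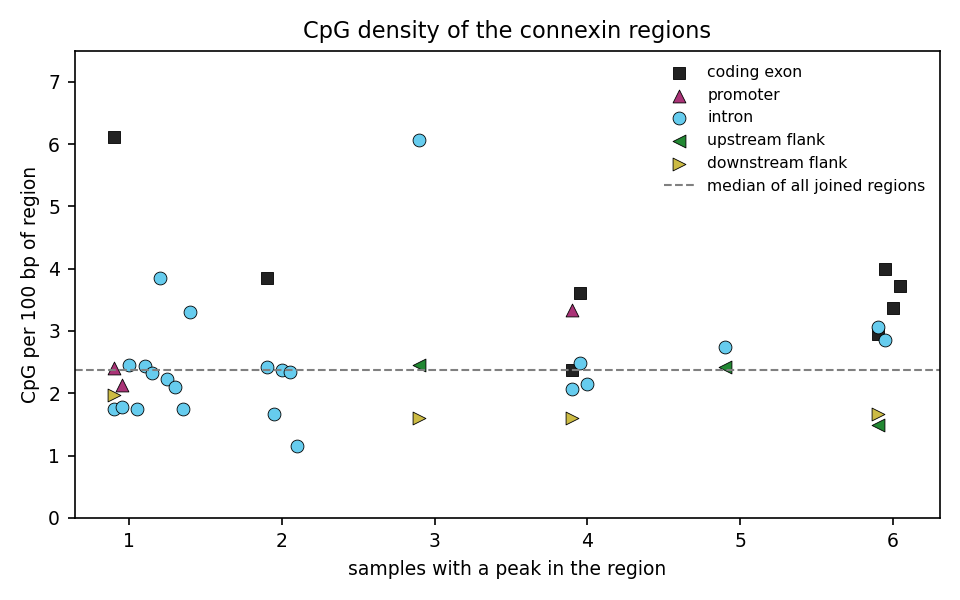
CpG per 100 bp of each of the 41 connexin regions (vertical axis) against the number of samples with a peak in it (horizontal axis, dots spread sideways), by gene element, with a dashed line at the median of all joined regions (2.37). Coding-exon regions lie close to or above the line, and the flank regions called in all samples lie below it.

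The density of peaks differed between the genes. Per 10 kb of gene and flanks, Gja4 had 1.85 peaks per sample on average (0.793 to 3.17 over the 6 samples), Gja1 1.66, Gjb2 1.55 and Gjb6 1.40. Gja3 had 0.514, Gja5 0.365 and Gjc1 0.221, where the median of all protein-coding genes was 0.517. The order of the first 4 cannot be told from the spread between samples, since the range of Gja4 covers the means of the other 3.

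Among the 16 other connexin and pannexin genes, 9 had a peak and 7 had none. Pannexins form related membrane channels that do not usually join cells. Over all protein-coding genes, the groups did not overlap at 3.13% with TGF-β1 higher and at 0.277% with TGF-β1 lower. Among the 16, the groups overlapped at 14 and did not at 2, both with more peaks after TGF-β1. Of these, Panx1 had 4, 5 and 4 peaks in control and 7, 8 and 8 in treated samples (means 4.33 ± 0.577 and 7.67 ± 0.577, SD, n = 3 each), with p = 0.1 in an exact two-sided permutation test, the smallest possible. The median difference over the 16 genes was 0, and the treated samples are the deeper ones here too. The Panx1 coding-exon region was called in all 6 samples, with 27, 34 and 34 reads in control and 35, 28 and 42 in treated samples, and the groups overlapped. Its added peaks lay outside the coding exon, with 1 coding-exon peak in every sample of both groups.

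The cell type could not be checked from these lists, which hold no RNA level. Promoter peaks were found in 1 of the 6 samples at each of the mesangial genes Pdgfrb and Gata3 and in none at Itga8 and Des. They were found in 2 samples at the endothelial gene Cdh5 and in none at Pecam1, the podocyte gene Nphs1 or the tubule genes Cdh16 and Umod.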

How the data were processed

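Peak lists of 3 control and 3 TGF-β1-treated samples were analysed, grouped by the labels. According to the methods, the authors mapped reads to mm9 with BWA, kept unique ones without duplicates, and called peaks per sample with MACS2 (2.1.0.20150731 in the file headers, no input, q cutoff 0.01). The deposited pileup is a signal, not normalized for depth, and the deposited fold enrichment is its ratio to local background. The deposited p-values and q-values are given as −log10. Samples had 9407103 to 13291419 reads, and the lowest pileup called was 8 to 10 reads, so an uncalled region is one without a peak at this depth.

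Summits were assigned with GENCODE vM1 on NCBIM37 (the assembly of mm9) in the order coding exon, promoter (2 kb), untranslated exon, intron, flank (5 kb). Single values were compared by exact permutation over the 20 assignments. The log2 highest pileup of regions called in all 6 samples, centred on each sample's median, was fitted with limma 3.58.1 in R 4.3.3 (lmFit, eBayes with trend, Benjamini-Hochberg over 41744 regions). The fit was tried on simulated data with large changes and no uncalled samples, so the effect of missing peaks was not tested. Read counts, on which the study ran its test, were not used here. Other steps used Python 3.11.15.

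The members and gene lists were chosen with earlier results of these data known. Named were all regions of Gja4 and, elsewhere, coding-exon and promoter regions, the region of highest mean pileup and regions called in at least 2 more samples of one group. Other regions called in all samples and other flank regions were named after their values were seen. Alternatives were stricter peaks, 2 kb flanks, any overlap, joining within 200 bp, scaling by reads, fold enrichment, regions of at least 3 samples, a replicate block and leaving out each sample. The sequence of the Gja4 regions and some results at other genes are not reported here.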

Additional observations from a re-analysis of the deposited data

How the results depend on the processing

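The lowest pileup of any called peak in a sample was 8 to 10 reads. Peaks were called against local background, so an uncalled region may hold more reads than the value put in for it. With 3 samples a group, no exact test could pass 0.05. Scaling by reads turned the difference in peaks to -0.0424 at Gja1 and -0.0626 at Gja5 (per 1000000 reads, exact permutation p = 0.4 each), the log2 fold change of the Gjb6 coding region to -0.0133, and the split of unadjusted limma calls over all regions from 818 higher and 926 lower to 212 and 2387, with a median of -0.10. Fold enrichment gave 0.0367 at the Gjb2 coding region, and joining within 200 bp merged the Gja1 coding regions and gave 0.108. Leaving out each sample, the difference in peaks ran from -0.167 (without treated replicate 3) to 0.833 at Gja1, -0.333 to 0.667 at Gja3, -0.667 to 0.833 at Gja4, 0 to 1.5 at Gja5, -0.667 to -0.167 at Gjb2, 0.333 to 1.33 at Gjb6 and -0.333 to 0.333 at Gjc1, and that in coding-exon peaks of Gja4 from -0.333 to 0.667 (without control replicate 3). The count of regions with every sample of one group called and no sample of the other ran from 0 to 1, as did that of regions with an unadjusted limma p below 0.05. The log2 fold changes ran from -0.200 to 0.0768 at the 5′ and -0.0217 to 0.253 at the 3′ coding region of Gja1, -0.0039 to 0.360 at the Gja3 intron, -0.192 to 0.0503 at the Gjb2 and -0.0123 to 0.122 at the Gjb6 coding region, with -0.457 to -0.0276 at the Gja5 and -0.503 to -0.0417 at the Gja4 regions shared by all samples. The cause was not tested. Counting summits in any exon of Gja4 (difference -0.333), and leaving out samples in the count of regions of one group, were chosen after seeing the data.

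Same-numbered samples share only a number. Their deviations correlated at -0.0464, 0.0432 and -0.130, and 1 of 6 samples correlated best with its own number. With the replicate block, the differences in peaks were those above (0.667 at Gja5 and 1 at Gjb6, exact sign-flip p = 0.75 and 0.5, smallest possible 0.25), and limma called 1533 in place of 1744 regions at an unadjusted p below 0.05, 0 of them among the 8 connexin regions. The block changed no call among the connexin results.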
